A study of Mus musculus with 20 samples.

Results

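Metallothionein 1 (Mt1), metallothionein 2 (Mt2) and the zinc importer Slc39a4 (ZIP4) were followed in the intestines of Spdef knockout (KO) and wild type mice. They were taken as every probe that carried 1 of these gene names, which gave 4 probes for 3 of the 17076 genes tested. The genes were chosen from measured values, namely KO over wild type in each group and the wild type levels at both stages, with the low Mt2 values in fetal small intestine in view. Those values are therefore given as a description, with no test. The other genes of metal handling were tested. RNA came from dissected whole small intestine or colon, and each pool combined 2 to 3 littermates. The adult mice were at postnatal day 30 and the fetal mice at E18.5 (embryonic day), either wild type or Spdef-/-. The labels give neither the strain nor the part of Spdef that is missing in the KO. Each of the 20 two-colour arrays set a KO pool against a wild type one, and every pair was run again with the dyes exchanged. There were 2 pairs from adult small intestine, 3 from adult colon, 3 from fetal small intestine and 2 from fetal colon.

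Metallothioneins are small cysteine-rich proteins of the cytosol that bind zinc and copper and buffer the free metal. Their genes are switched on when zinc rises, through the metal-sensing transcription factor MTF1, which binds short metal response elements in their promoters; glucocorticoids and oxidative stress also raise them. Slc39a4 sits in the apical membrane of the enterocyte and takes up zinc from the gut lumen, and its loss in humans causes acrodermatitis enteropathica, a zinc deficiency of infancy. In the small intestine, Paneth cells at the crypt base store zinc in their granules. Spdef is a transcription factor of goblet and Paneth cells.

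Mt1 and Mt2 are neighbours on chromosome 8. In build mm8, as given in the files, the probe that stands for Mt2 lies at chr8:97062600-97062659 and the brighter Mt1 probe at chr8:97069240-97069299, 6640 bases further along the same strand. A second, dimmer Mt1 probe lies at chr8:97069073-97069132, and the Slc39a4 probe lies on the other strand of chromosome 15 at chr15:76439691-76439750. Of the 3 genes, 2 (Mt1 and Mt2) had a promoter window in the RefSeq table (build GRCm38.p6), from 250 bases before to 50 bases after the start used there. Both strands of these windows were searched for the core of the metal response element in 2 spellings, TGCACNC and TGCGCNC, and for the antioxidant response element TGACNNNGC. The windows are shown as background on these genes, and the part of such sites in the KO values was not tested. The 250 bases before the Mt2 start, chr8:94172368-94172617 on the plus strand, read as follows, with each match in capitals.
Mt2: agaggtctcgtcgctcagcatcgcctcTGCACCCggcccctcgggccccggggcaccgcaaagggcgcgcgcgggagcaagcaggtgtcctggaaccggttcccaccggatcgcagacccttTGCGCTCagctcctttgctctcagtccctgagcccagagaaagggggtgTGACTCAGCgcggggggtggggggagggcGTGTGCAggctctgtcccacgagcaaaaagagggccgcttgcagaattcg

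The 3 metal response element matches of this stretch begin 223, 128 and 50 bases before the start, the last of them on the minus strand, and the antioxidant response element match begins 79 bases before it. A further match on the minus strand begins at base 5 of the transcript. The Mt1 window held 3 metal response element matches and no antioxidant response element match. The Mt1 gene is annotated from chr8:94178883, upstream of the first match at chr8:94179066. The window thus uses a start inside the annotated gene, and its match count rests on that start. The matches begin 23 bases before the start used and at bases 3 and 21 after it, and are given here with 8 bases on each side.
Mt1, 23 bases before the start: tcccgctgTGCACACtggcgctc
Mt1, base 3: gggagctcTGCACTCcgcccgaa
Mt1, base 21: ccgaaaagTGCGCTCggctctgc
Mt2, base 5: ttcgggtcGTGCGCAggcccagg

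Of the 32851 promoter windows, 25.7% held at least 1 metal response element core in either spelling, 1.97% held at least the 3 of Mt1, and 0.517% at least the 4 of Mt2. TGACNNNGC occurred in 12.4% of windows. A match describes these letters and does not show that a factor binds there.

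The pools were checked against their labels first. Spdef was lower in the KO pool of all 10 pairs, at log2 values from -3.96 to -1.45. On 1 slide, shared by pair 3 of the fetal small intestine and pair 1 of the fetal colon, the tissue markers went against the labels. Lct, the lactase of small intestinal enterocytes, was at a log2 intensity of 8.76 in the wild type pool labelled fetal small intestine 3, against 15.99 and 16.06 in pools 1 and 2. The hindgut transcription factor Hoxb13 was at 11.64 in that pool, and not above background in pools 1 and 2. The pool labelled fetal colon 1 had Lct at 16.37 and Hoxb13 not above background, whereas fetal colon 2 had 9.08 and 11.15. The KO pools of both pairs showed the same levels as their wild type partners to within 0.22 in Lct, so KO over wild type compares like with like within these arrays. Groups are called by their labels throughout, no sample was moved, and values that rest on this slide are also given without it. Fetal small intestine pairs 1 and 2 differed by less than the noise between arrays (variance ratio 0.551, against 1.45 to 6.83 for other pairs of a group) and were counted as 1 replicate, which left 9 replicates. Nothing in the labels says that pools of a group came from separate litters, so the errors measure the spread between these pools. Each SE uses 1 spread per gene, shared over the 4 groups and drawn towards that of other genes. It can therefore be smaller than the spread within a group would give. In fetal small intestine the SD between replicates of KO over wild type was 0.76 for Mt2 and 0.32 for Mt1.

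**Figure D1:**
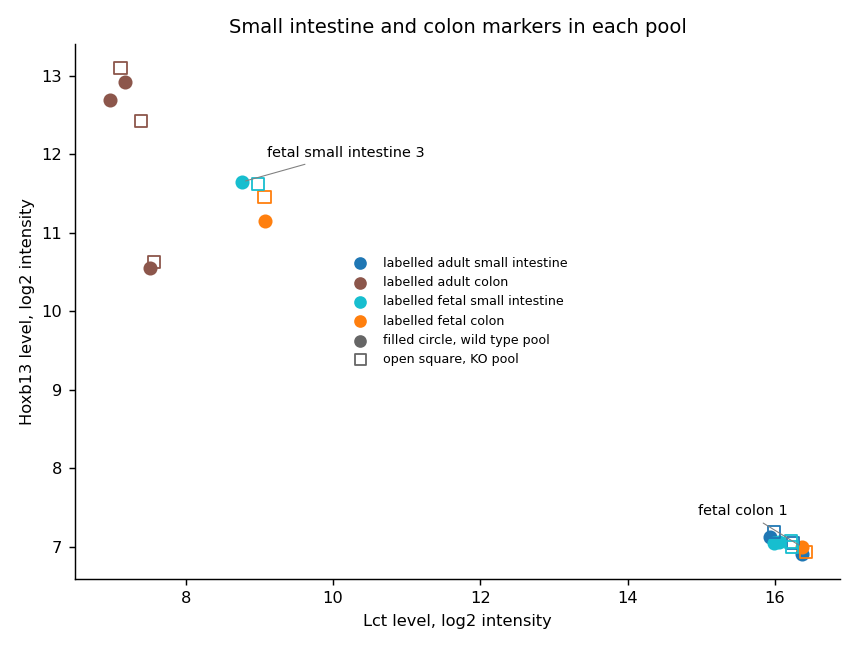
Level of Lct (x axis) and Hoxb13 (y axis), both in log2 intensity, in each pool, with wild type pools as filled circles, KO pools as open squares and colours for the labelled group. The pool labelled fetal small intestine 3 lies with the colon pools at a Lct level of 8.76, and the pool labelled fetal colon 1 lies with the small intestine pools at 16.37.

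A single array stood apart. On the array of adult colon pair 1 with the KO pool in Cy5, 2895 of 41118 probes lay more than 3 log2 units from where its dye swap put them, after the median offset was removed. The next highest number was 1078, in fetal colon pair 2, and the other pairs had 0 to 2. On the arrays of fetal colon pair 2 the described genes were close, with wild type levels of 14.23 and 14.10 for Slc39a4, 11.64 and 11.60 for Mt2, and 12.33 and 12.41 for Mt1. The uneven array shifted both channels alike, so KO over wild type was little touched, but the levels of adult colon pool 1 rest on it: wild type Slc39a4 was at 10.71 on this array and 16.29 on its dye swap, Mt2 at 11.09 and 14.95, and Mt1 at 12.27 and 13.23. Level comparisons are therefore given with and without it, an alternative added after the data were seen. Across arrays, the share of probes well above background ran from 39.8% to 71.6%. The Mt1, Mt2 and Slc39a4 probes were well above background in all 40 channels and saturated in none, and the number of replicates limits the precision.

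Mt2 was lower in the KO pools of both fetal tissues, by a wide margin in those labelled small intestine, and lay near the wild type level in adult colon. In the 3 fetal small intestine pairs the log2 ratio of KO over wild type was -2.67, -2.69 and -1.62, which are 6.38-fold, 6.47-fold and 3.06-fold lower levels. In fetal colon it was -1.32 in pair 1 and -0.37 in pair 2. The adult small intestine pairs were at -0.02 and -0.48, and the adult colon pairs at -0.02, -0.06 and 0.17. All 5 fetal pairs were below 0, and the 3 labelled small intestine were lowest, although pair 3 of these had the colon markers. The fit over all 9 replicates gave -2.15 ± 0.27 (SE, n = 2) in fetal small intestine, a 4.44-fold lower level, and -0.85 ± 0.27 (n = 2) in fetal colon. It gave -0.25 ± 0.27 (n = 2) in adult small intestine and 0.03 ± 0.22 (n = 3) in adult colon. The adult small intestine pair at -0.48 also differed in exocrine pancreas markers, whose summed level was 14.99 in wild type and 10.92 in KO, while 9 and 8 of 9 markers were above background; their part in the Mt2 value was not tested. These markers were also lower in KO in adult colon 1 (18.53 to 15.75) and 3 (19.02 to 15.95), and higher in KO in adult small intestine 1 (16.40 to 17.40). Of 17076 genes, Mt2 had the third lowest value in fetal small intestine (rank 3) and rank 45 in fetal colon.

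Single arrays gave the same picture. On 10 of 10 fetal arrays the KO channel had less Mt2, from -2.87 to -0.36, as were 2% of all genes. By label, the 6 arrays of fetal small intestine ran from -2.87 to -1.59 and the 4 of fetal colon from -1.39 to -0.36. The values of the groups that lay nearest each other came from the mixed slide. By tissue markers the groups would overlap, as fetal small intestine 3 (-1.62) had the colon markers and fetal colon 1 (-1.32) the small intestine markers. Dye orders of a pair differed by a median of 0.210 for Mt2. Without the mixed slide, the Mt2 value was -2.68 for fetal small intestine and -0.37 for fetal colon, each from 1 replicate.

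Mt1 followed Mt2 in fetal small intestine, with smaller differences. Its log2 ratio there was -1.18, -1.21 and -0.75, against -0.23 and -0.20 in fetal colon. It was -0.20 and -0.19 in adult small intestine, and -0.11, -0.28 and -0.03 in adult colon. On this brighter of the Mt1 probes every pair was below 0, and only the 3 pairs labelled fetal small intestine went below -0.3. The fitted value was -0.97 ± 0.10 (SE, n = 2) in fetal small intestine (-1.19 without the mixed slide), a 1.96-fold lower level with rank 31 of 17076. It was -0.21 ± 0.10 in fetal colon, -0.20 ± 0.10 in adult small intestine and -0.14 ± 0.08 in adult colon. The brighter Mt1 probe was printed on 10 spots of each array, whose log2 ratios had an SD of 0.014 to 0.109 within an array. Its 10 fetal arrays, which are dye swaps of the same pairs, were all lower in the KO channel, as were those of 2% of all genes. On the dimmer probe 1 of the 4 fetal colon arrays was higher. The dimmer Mt1 probe averaged -0.54 ± 0.36 (SD) in fetal small intestine, -0.07 ± 0.10 in fetal colon, -0.31 ± 0.26 in adult small intestine and -0.41 ± 0.10 in adult colon, where the brighter probe was nearer 0. On it the adult colon pairs (-0.35, -0.53 and -0.34) and adult small intestine 2 (-0.49) lay below fetal small intestine 3 (-0.29), so the probes disagreed on how far the fetal small intestine stood apart. Over the 9 replicates, the KO over wild type values of Mt1 and Mt2 had a Pearson r of 0.92, a description over points that share arrays and dye swaps.

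Slc39a4 differed little between KO and wild type. Its log2 ratio was 0.31, 0.25 and 0.00 in fetal small intestine, near 0 (-0.02 and -0.01) in fetal colon, -0.18 and -0.29 in adult small intestine, and 0.01, -0.02 and 0.21 in adult colon. Both adult small intestine pairs lay below 0 and the others at 0 or on either side of it. The fitted values were 0.14 ± 0.08 in fetal small intestine (0.28 without the mixed slide), -0.02 ± 0.08 in fetal colon, -0.23 ± 0.08 in adult small intestine and 0.07 ± 0.07 in adult colon. The dye orders of a pair differed by a median of 0.363, larger than any of these values, and 11 of 20 arrays were higher in the KO channel.

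**Figure D2:**
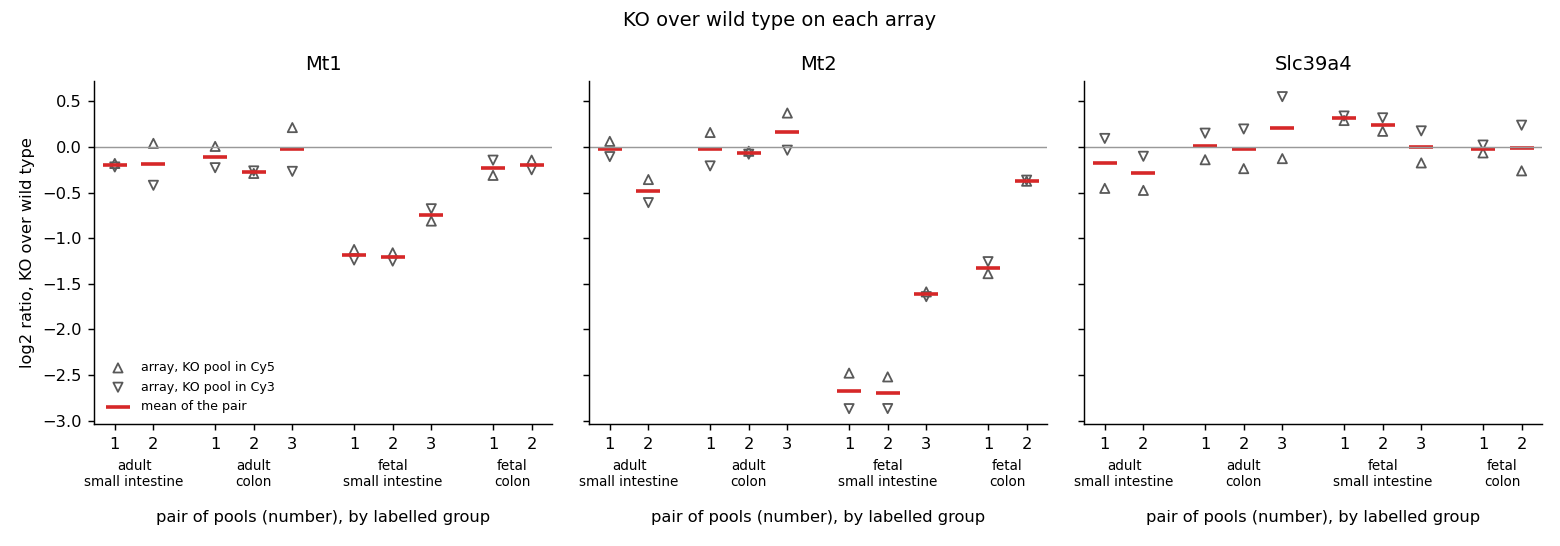
Log2 ratio of KO over wild type (y axis) of Mt1 (brighter probe), Mt2 and Slc39a4 for each pair of pools (x axis, by labelled group). Triangles are single arrays by the dye of the KO pool and bars are the mean of a pair; the Mt2 bars of fetal small intestine lie at -2.67, -2.69 and -1.62, while no Slc39a4 bar is past 0.31.

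Other measures differed between the fetal KO and wild type pools as well. The Y-linked gene Eif2s3y was not above background in the wild type pools of all 3 fetal small intestine pairs (6.89 to 7.36) and was at 10.46 to 11.23 in their KO pools. In fetal colon it was present in both genotypes, and Xist, the transcript of the inactive X chromosome, was at 7.26 and 8.03 in wild type against 10.71 and 12.63 in KO pools. The sex of the pools thus differed between the genotypes in both fetal tissues, in opposite ways by label. Its part in the Mt1 and Mt2 values was not tested. In fetal small intestine 2 of 9 Paneth markers and 2 of 6 goblet markers passed the test, all lower, with list medians of -0.75 and -0.90, while 0.439% of all genes passed there in either direction. The goblet list includes Spdef itself, whose loss is the genotype, so the goblet counts and medians of every group are not independent of it. The summed Paneth level of the wild type pools of that group ran from 12.22 to 16.18 (log2) and that of the KO pools from 11.71 to 15.63, with 7 or 8 of 9 markers above background. In adult small intestine the Paneth median was -1.21, with 5 of 9 past the threshold against 0.398% of all genes. In fetal colon 0 of 9 Paneth markers and 2 of 6 goblet markers passed, both lower, with medians of -0.21 and -0.78, against 0.287% of all genes. Liver markers, none of which passed, were lower in KO for 9 of 9 in fetal colon 1 (median -0.68) and fetal small intestine 3 (-0.36). They were lower for 3 and 2 of 9 in fetal small intestine 1 and 2 (0.06 and 0.14), and for 4 of 9 in fetal colon 2 (0.17). Their summed level in the fetal pools ran from 14.30 to 16.99 in wild type and from 13.54 to 16.59 in KO. Smooth muscle markers, none of which passed, were lower for 6 of 6 in fetal small intestine 1 and 2 (-0.29 and -0.30), and for 1, 0 and 5 of 6 in fetal small intestine 3, fetal colon 1 and fetal colon 2. Their sums ran from 16.15 to 18.08 in wild type and from 15.89 to 18.11 in KO. No enterocyte marker of 7 passed the test in either fetal group. In whole-tissue RNA, fewer cells of a type and less RNA per cell cannot be told apart, and the part of these lists in the Mt1 and Mt2 values was not tested.

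Wild type levels of Mt2 were highest in fetal small intestine pools 1 and 2 and lowest in fetal colon pool 2. They were 16.34, 16.33 and 13.84 (log2 intensity) in fetal small intestine and 13.63 and 11.62 in fetal colon. They were 13.54 and 13.58 in adult small intestine, and 13.02, 14.39 and 14.57 in adult colon, or 14.95 in place of 13.02 without the uneven array. The KO pools of fetal small intestine were at 13.67, 13.64 and 12.23, so pools 1 and 2 lay at the wild type level of the adult small intestine. The 2 wild type pools on the mixed slide, fetal small intestine 3 and fetal colon 1, were alike in Mt2 (13.84 and 13.63) although their tissue markers were far apart.

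Wild type Mt1 levels showed the same high pools. They were 15.53, 15.55 and 13.56 in fetal small intestine and 13.81 and 12.37 in fetal colon. They were 12.66 and 12.67 in adult small intestine and 12.75, 12.99 and 12.87 in adult colon. On this brighter probe all 3 fetal small intestine pools lay above both adult ones, whereas the colon pools of the stages overlapped, unlike those of 41.2% of all genes. On the dimmer probe fetal small intestine pools 1 and 2 (9.54 and 9.61) lay above the adult ones (8.25 and 8.20), but pool 3 (7.76) lay below both. Adult over fetal small intestine was -1.88 ± 0.66 for Mt1 and -1.53 ± 0.95 for Mt2 (log2 ± SE), and 65.7% of all genes had wild type pools of these groups that did not overlap. Both rested on which fetal pools were used: without fetal pool 3, and so without the mixed slide, they were -2.88 and -2.78, and without pools 1 and 2 they were -0.89 and -0.28. In colon the differences were -0.22 ± 0.60 for Mt1 and 1.37 ± 0.87 for Mt2, and 2.01 for Mt2 without the uneven array. Without fetal colon pool 1, which had the small intestine markers, they were 0.50 and 2.37, and without fetal colon pool 2 -0.94 and 0.36, so the direction for Mt1 was not settled. On the 1 slide that held both an adult and a fetal colon pool (adult pool 3, fetal pool 2), Mt2 was 2.95 higher and Mt1 0.50 higher in the adult pool. No slide held both an adult and a fetal small intestine pool, so stage and slide cannot be told apart in that tissue.

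Slc39a4 was bright in every pool. Its wild type level was 16.59 and 16.65 in adult small intestine and 15.46, 15.53 and 14.71 in fetal small intestine. It was 13.50, 16.30 and 15.76 in adult colon, where 16.29 takes the place of 13.50 without the uneven array, and 15.97 and 14.16 in fetal colon. Adult over fetal small intestine was 1.52 ± 0.94 and adult over fetal colon 0.12 ± 0.86, or 1.05 without the uneven array. The small intestine difference was 1.12 without fetal pool 3, and stage and slide cannot be told apart in it. The colon difference ran from -0.78 without fetal colon pool 2 to 1.02 without fetal colon pool 1, and was also below 0 without adult colon pool 2 or 3, so its direction was not settled. The adult small intestine wild type pools lay above all others, the nearest being adult colon pool 2 at 16.30. Of all genes, 65.7% had wild type pools of adult and fetal small intestine that did not overlap. For the 2 adult tissues this share was 45.5%. In KO pools without the uneven array, adult colon pool 1 (16.45) lay above both adult small intestine pools (16.41 and 16.36). In both genotypes the fetal pools with the colon markers, small intestine 3 and colon 2, had the lowest fetal Slc39a4 levels. KO levels of Slc39a4 were 16.41 and 16.36 in adult small intestine and 15.78, 15.78 and 14.71 in fetal small intestine.

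**Figure D3:**
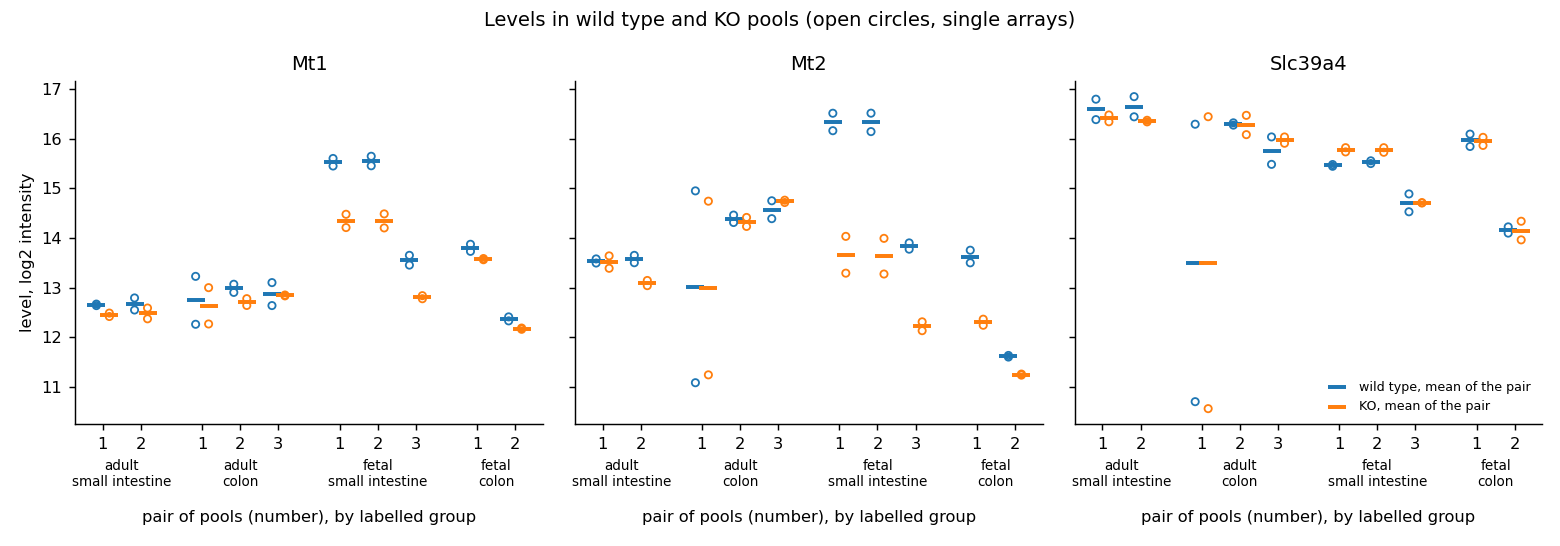
Level of Mt1, Mt2 and Slc39a4 in log2 intensity (y axis) in the wild type and KO pool of each pair (x axis, by labelled group), with bars for the mean of a pair and open circles for single arrays. Wild type Mt2 stands at 16.34 and 16.33 in fetal small intestine 1 and 2 and at 13.84 or less in the other fetal pools; the spread of adult colon 1 is that of its uneven array.

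Differences between the tissues in these genes rest on the same levels that were in view when the genes were chosen, so they too are a description, with no test. In adult wild type pools, colon over small intestine was 0.20 ± 0.60 (log2 ± SE) for Mt1, 0.43 ± 0.87 for Mt2 and -1.43 ± 0.86 for Slc39a4. Without the uneven array these values were 0.37, 1.08 and -0.50. Mt2 was then at 14.39 to 14.95 in the adult colon pools, against 13.54 and 13.58 in small intestine. With all arrays the adult wild type pools of the tissues overlapped in Mt2, whereas those of 45.5% of all genes did not overlap. In adult KO pools Mt2 was 1.30 higher in colon without the uneven array. On the only slide with an adult pool of each tissue, numbered 2 in both, Mt2 was 0.81 higher in wild type colon and 1.23 higher in KO colon.

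Fetal wild type colon over small intestine, as labelled, was -1.46 ± 0.66 for Mt1, -2.46 ± 0.95 for Mt2 and -0.04 ± 0.94 for Slc39a4. Without the mixed slide, 1 replicate of each tissue was left, on different slides. Mt1 was then -3.17 and Mt2 -4.71 in wild type, and Mt1 -2.17 in KO pools. Slide, tissue and sex of the pool cannot be told apart in these values. Within the mixed slide, wild type Mt2 was 0.21 lower and Mt1 0.25 higher in the pool labelled colon.

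No other zinc transporter passed the test between genotypes. Of 12 ZIP importers and 8 ZnT exporters measured, besides Slc39a4, 0 passed in any of the 4 groups in limma. At an unadjusted p under 0.05 there were 3 in small intestine and 8 in colon of adults, and 1 in each fetal tissue. Of all 17076 genes, 2065 and 4713 reached that p in the adult tissues, and 1288 and 1112 in fetal small intestine and fetal colon. At the adjusted threshold 0.398% passed in small intestine and 9.59% in colon of adults, against 0.439% and 0.287% in the same fetal tissues. In fetal small intestine the 12 ZIP values ran from -0.20 (Slc39a5, the basolateral ZIP5) to 0.10 (Slc39a10), with a median of -0.02, and the 8 ZnT values from -0.13 (Slc30a7) to 0.07 (Slc30a9), with a median of -0.00, as in all genes (0.00). Slc30a1, the plasma membrane zinc exporter that is also a target of MTF1, was at -0.00 ± 0.08 in fetal small intestine, with 0.01 ± 0.08 for fetal colon (adjusted p = 1.00 in both).

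The other metallothioneins and their regulators numbered 7. In fetal small intestine Mtf1, which encodes the metal sensor, was at 0.05 ± 0.05 (adjusted p = 1.00), and Mt3, the metallothionein best known from brain, at -0.07 ± 0.07 (1.00). Mt4, known from stratified epithelia, was at -0.24 ± 0.06 (0.260 in limma) and Usf1, a basic helix-loop-helix factor that binds the Mt1 promoter, at 0.26 ± 0.06 (0.167). None passed there. Usf1 passed in adult colon, at 0.19 ± 0.05 (adjusted p = 0.0434 in limma), with 0.20, 0.16 and 0.21 in the 3 pairs. This call held in 7 of 21 alternatives. It was lost when any 1 adult colon pair was left out, with the scanner's processed signals and with the authors' table.

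**Figure D4:**
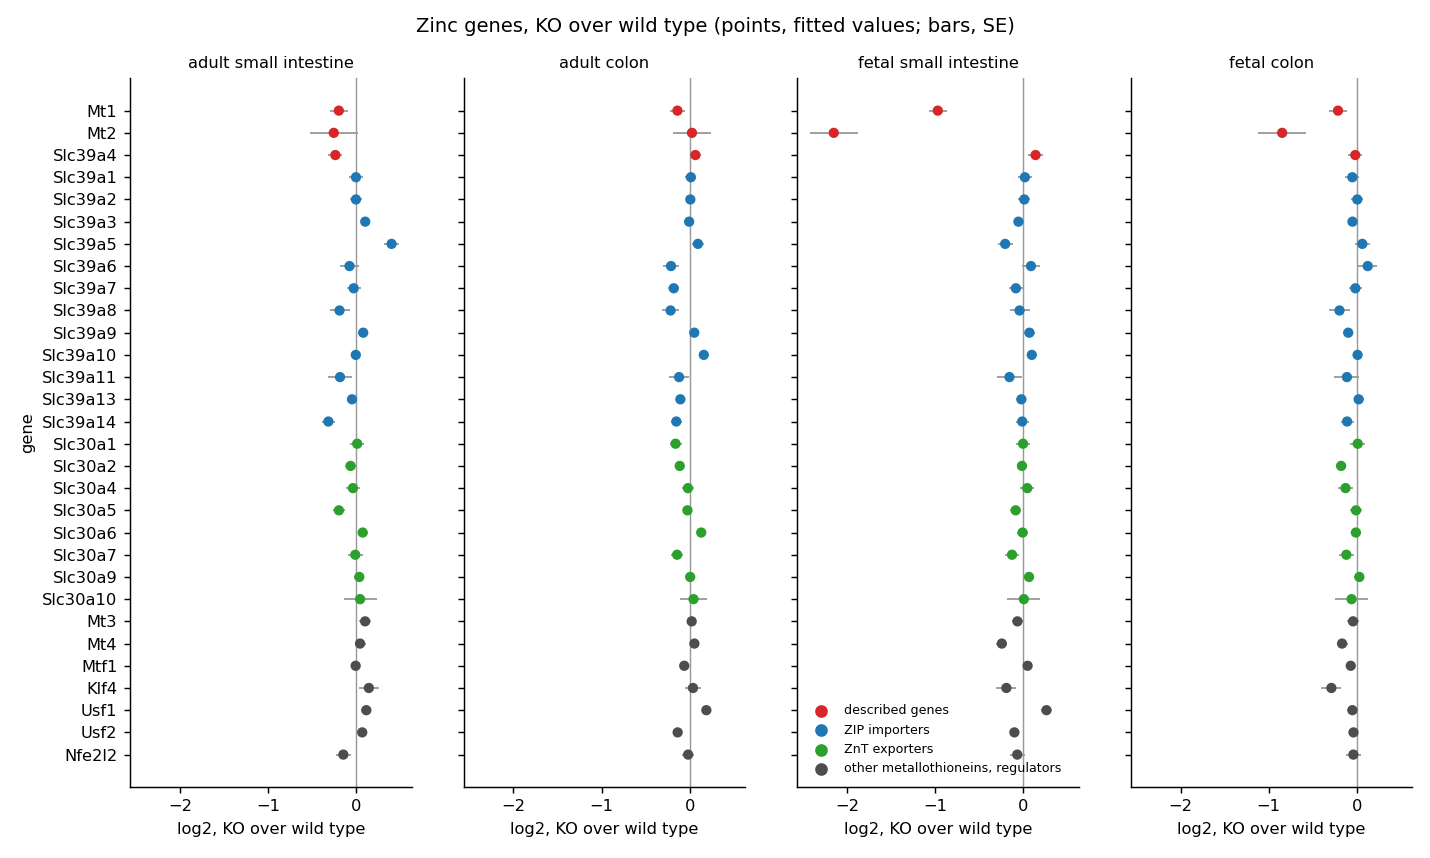
Fitted log2 of KO over wild type (x axis, bars are SE) for the 3 described genes, 12 ZIP importers, 8 ZnT exporters and 7 other metallothioneins and regulators (y axis) in the 4 labelled groups. In fetal small intestine Mt2 lies at -2.15 and Mt1 at -0.97, while the transporters lie between -0.20 and 0.10.

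The lists of iron and copper handling, glucocorticoid response and oxidative stress response brought the number of listed genes measured to 61. None of the 61 passed in adult small intestine, fetal small intestine or fetal colon, with 5, 6 and 5 at an unadjusted p under 0.05, which 2065, 1288 and 1112 of all 17076 genes reached. In adult colon 3 passed in limma, 2 higher and 1 lower. Besides Usf1 these were Gpx2, the glutathione peroxidase of the gut epithelium, which rose (0.40 ± 0.09, adjusted p = 0.0392; 0.44, 0.55 and 0.20 by pair), and Hsd11b2, which inactivates glucocorticoids and fell by 0.31 (± 0.06, adjusted p = 0.021; -0.30, -0.46 and -0.17 by pair). Of 21 alternatives, Hsd11b2 passed in 14, Gpx2 in 9 and Usf1 in 7. The share of 3 in 61 lies below the background of 9.59%. The count was 5 without the uneven array, without fetal small intestine replicate 3 or without replicate 1+2, 1 without either fetal colon pair, and 0 without the mixed fetal slide or without adult colon pair 1 or 2. Of the 32 results on named list genes past the threshold, here and in the level comparisons, 0 changed direction under the alternatives run.

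No slide held both adult and fetal small intestine pools, so stage and slide cannot be told apart in the small intestine comparisons below. In wild type pools Mtf1 was higher in adult than in fetal pools of both tissues. It was at 10.24 and 10.07 in adult against 8.61, 8.58 and 8.37 in fetal small intestine (1.67 ± 0.21, 3.19-fold, adjusted p = 0.00528 in limma). In colon it was at 9.87, 9.74 and 9.54 in adult and 8.74 and 8.38 in fetal pools (1.16 ± 0.20, adjusted p = 0.0151). It no longer passed in small intestine without adult pool 1 (adjusted p = 0.0641), nor in colon without fetal pool 2 or with the mean of all Mtf1 probes (0.38). Between adult and fetal small intestine 12 of 61 listed genes passed, 9 higher and 3 lower, against 8.44% of all genes (4.77% higher and 3.67% lower). Between adult and fetal colon 14 passed, 10 higher and 4 lower, against 8.79% (5.93% and 2.86%). Without the uneven array the counts were 21 (22.7% of all genes) and 20 (22%). They fell to 2 without adult small intestine pool 1, 4 without its pool 2 or without fetal small intestine pool 3, 6 without fetal small intestine replicate 1+2, and 7 without adult colon pool 3 in small intestine. In colon they fell to 9 without either adult small intestine pool or without fetal colon pool 2, 8 without adult colon pool 2, 6 without adult colon pool 3, and 7 without fetal colon pool 1.

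Of 9 oxidative stress genes, 5 passed in each tissue, all higher in adult pools. Txnrd1 (thioredoxin reductase) rose by 1.52 ± 0.17 in small intestine (adjusted p = 0.00333 in limma) and 1.11 ± 0.16 in colon (0.008). Gclc, the rate-limiting enzyme of glutathione synthesis, rose by 0.94 ± 0.17 and 1.65 ± 0.15 (0.0178 and 0.00151). Gpx2 rose by 3.41 ± 0.66 and 3.23 ± 0.60 (0.0243 and 0.021). Gsr, the glutathione reductase, rose by 1.75 ± 0.26 in small intestine (0.00956), and the quinone reductase Nqo1 by 1.60 ± 0.30 in colon (0.0215). Cdkn1c, the cell cycle inhibitor p57, fell by 4.93 (± 0.40, adjusted p = 0.000756) in small intestine and fell by 5.50 in colon (± 0.37, adjusted p = 0.000375). Fkbp5, a glucocorticoid-induced chaperone partner, rose by 1.35 ± 0.30 and 2.11 ± 0.27 (0.0375 and 0.00549). Hsd11b2 rose by 2.04 ± 0.21 in colon (0.0021). Of the metal transporters in small intestine, the iron importer Slc11a2 rose (1.69 ± 0.29, 0.0166), while the iron exporter Slc40a1 fell by 1.82 (± 0.28, adjusted p = 0.0108) and the copper transporter Slc31a2 by 1.56 (± 0.38, adjusted p = 0.0471). Nr3c1, the glucocorticoid receptor, rose there by 1.10 ± 0.26 (0.0432). With the mean of all probes of a gene, the small intestine values of Slc11a2 and Fkbp5 were 0.22 and 0.18 and did not pass. Of 20 alternatives in small intestine, Cdkn1c and Txnrd1 passed in all 20, Gsr in 17, Slc40a1 in 16, Gclc and Gpx2 in 14, Slc11a2 in 13, Slc31a2 and Fkbp5 in 11 and Nr3c1 in 10. In colon Cdkn1c, Hsd11b2, Fkbp5 and Gclc passed in all 20, Txnrd1 in 18, Gpx2 in 16 and Nqo1 in 14.

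In colon, 3 zinc transporters passed between the stages in wild type pools. Slc30a2 fell by 4.25 (± 0.79, adjusted p = 0.0205 in limma) from fetal to adult colon, Slc39a11 rose 2.83-fold (0.0205) and Slc30a7 by 0.87 ± 0.21 (0.0463). Slc40a1 fell by 1.15 there (± 0.25, adjusted p = 0.0361) and Slc31a2 by 1.59 (± 0.34, adjusted p = 0.0337). Of 20 alternatives, Slc39a11 passed in 15, Slc31a2 in 9, Slc40a1 in 8 and Slc30a7 in 7. The Slc30a2 value was -3.05 without fetal colon pool 1, which had the small intestine markers, and -5.45 without fetal colon pool 2. Slc30a2 encodes ZnT2, which loads zinc into secretory vesicles and granules. Its wild type level was 12.29 and 12.73 in adult small intestine against 7.25, 7.11 and 7.19 in adult colon, where 2 pools were above background on 1 of their arrays only. Colon over small intestine was -5.33 ± 0.79 in adult wild type pools (adjusted p = 0.0155). In adult KO pools it was at least 40.6-fold lower in colon, where no array was above background (adjusted p = 0.0177), by the colon mean of the lowest signal well above background on an array, or the probe's own where higher. Between adult tissues Slc30a2 lost its call when any 1 of the 5 adult pools was left out (wild type adjusted p = 0.051 to 0.172 in limma), and between colon stages without adult colon pool 2 or 3 or fetal colon pool 1 (adjusted p = 0.0534, 0.0689 and 0.0723). Exocrine pancreas markers ran from a summed level of 12.85 to 19.02 in the wild type adult colon pools, and their part in the Slc30a2 levels was not tested. By label, Slc30a2 was 12.61, 12.62 and 10.44 in fetal small intestine and 12.64 and 10.23 in fetal colon, high in the pools with the small intestine markers. The log2 of KO over wild type of Slc30a2 lay between -0.19 and 0.03 in all 10 pairs. In adult colon its level was at or near background, so values near 0 there do not show whether the genotypes differed.

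Between adult tissues, 2 of the 61 genes passed in wild type pools (2.97% of all genes), Slc30a2 and Hsd11b2 (2.09 ± 0.21, adjusted p = 0.00272), and 3 in KO pools (2.54% of all genes), these and the phosphatase gene Dusp1 (1.14 ± 0.20, adjusted p = 0.0352 in limma). Without the uneven array the counts were 6 (7.64% of all genes) and 3 (5.49%). The wild type count was 0 without adult small intestine pool 2 and 1 without any other 1 adult pool; that of KO pools was 0 without either adult small intestine pool and 1 without any 1 colon pool. Between fetal tissues as labelled 0 passed in either genotype in limma (0.00586% of all genes in each), with 0 at an unadjusted p under 0.05 in both.

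The genes most like Mt2 were ranked by Pearson r over the 9 replicates, which share arrays and slides, as a description. In KO over wild type they were Txndc5 (0.98), Card19 (0.97), Fam3b (0.94), Pdcd6 (0.93) and Tnk2 (0.93). Txndc5, a protein disulfide isomerase of the endoplasmic reticulum, was at -0.45, -0.47 and -0.23 in fetal small intestine, at -0.25 and -0.14 in fetal colon, and between -0.13 and -0.05 in the adult pairs, a fraction of the size seen in Mt2. In wild type level they were Aire (0.83), Mt1 (0.80), Fhdc1 (0.79), Myo18b (0.78) and Anxa9 (0.77), of which Aire moved only between 7.17 and 7.64. For Slc39a4 the most alike in level were Yipf4 (0.98), Ankrd13c (0.98), Arhgef16 (0.98), Heph (0.98) and Tmem54 (0.98). They shared the dip of the uneven array, without which r was 0.98, 0.97, 0.96, 0.95 and 0.95. Heph encodes hephaestin, the ferroxidase of enterocytes. In KO over wild type they were Mtarc1 (0.91), Unc93a (0.91), Mfsd1 (0.91), Npb (0.90) and Piga (0.90), of which Npb had 0.64 without the uneven array.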

How the data were processed

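Spot intensities of both channels (mean and background, not normalized) and a log10 ratio of red over green were deposited as scanner output, per the file headers; the submitters' processing notes name Agilent Feature Extraction 9.5.3.1 and 9.5.3. The authors also deposited a series table of log2 ratios, which was used as an alternative. From the intensities, background was corrected by normexp (offset 50), arrays were normalized by loess with control spots at weight 0, dye swaps were averaged and signs were turned to KO over wild type. Levels are single-channel log2 intensities after loess and Aquantile scaling, so they are not comparable between probes. The brightest probe stood for a gene. A single limma 3.58.1 fit (R 4.3.3) of 9 replicates with 4 group terms (5 residual degrees of freedom) covered 17076 genes with a probe above background, adjusted by Benjamini-Hochberg at 0.05. On simulated fetal small intestine data, 96% of 200 genes changed by a log2 of 1 among 17076, and 99% at a log2 of 2, were recovered, with 15 false calls. This recovery holds for the simulated spread only. In the measured data of that group 2 of 9 Paneth and 2 of 6 goblet markers passed, at list medians of -0.75 and -0.90. A gene that did not pass may still differ.

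The members, lists and tests were chosen with earlier results of these data known. Tissue differences of the described genes had been planned as tests; they share the levels the choice rested on and are given without p-values. Named were every called gene of the zinc transporter and metallothionein lists, up to 4 called genes of each other list per contrast, and the 5 genes most alike; ZIP, ZnT and metallothionein genes that did not pass, and the values of Txndc5 and Aire, were picked after their values were seen. Alternatives covered background, normalization, dim probes, probe choice, slide, replicate number, near-identical pairs, the authors' table and left-out replicates. Without the uneven array, alone or with the mixed slide, was added after the data were seen.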

Additional observations from a re-analysis of the deposited data

How the results depend on the processing

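Mt2 in fetal small intestine stayed negative in KO over wild type under all alternatives run, from -2.68 to -1.62. Of 32 tested results on named list genes, 0 changed direction and 6 passed under every alternative. The cause of the changes below was not tested, and few replicates limit all of them.

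For tissue differences of the described genes, Mt1 in adult wild type pools was -0.0087 with slide as a random block. Slc39a4 between fetal tissues was 0.17 in wild type and 0.0051 in KO pools with the scanner's processed signals. Leaving out 1 replicate gave -0.94 to 0.87 for Slc39a4 in wild type, -1.09 to 0.70 in KO, and -1.47 to 0.066 for Mt1 in KO. Without fetal small intestine replicate 1+2, Slc39a4 was 0.36 in wild type and 0.34 in KO pools. Without the mixed slide, fetal Mt1 (-3.17 in wild type, -2.17 in KO) and wild type Mt2 (-4.71) lay farther from 0. Without the uneven array as well, so did KO Mt2 (-2.40), Slc39a4 (-1.33 and -1.62) and adult Mt2 (1.08 and 1.30).

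The number of list genes past the threshold in adult colon, 3 for KO over wild type, was 1 with processed signals, 0 with median centring, 5 without the filter, 5 with every pair as its own replicate, 0 without the mixed slide, 5 without the uneven array, 0 without both, and 0 to 5 with 1 replicate left out. In fetal small intestine it was 4 in place of 0 with every pair as its own replicate, and in adult small intestine 0 to 1 with 1 replicate left out. Between adult tissues the wild type count of 2 became 5 with every pair as its own replicate, 7 without the mixed slide, 6 without the uneven array, 29 without both, and 0 to 3 with 1 replicate left out. The KO count of 3 became 5 with the mean of all probes, 7 without the mixed slide, 21 without both, and 0 to 3. Between fetal tissues the count of 0 became 2 (wild type) and 4 (KO) without the mixed slide, and 22 and 23 without both. Between stages the small intestine count of 12 became 7 without the filter, 21 without the uneven array, 32 without both, and 2 to 13 with 1 replicate left out; the colon count of 14 became 37 without both, and 6 to 11.

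Correlations of same-numbered samples ran from -0.07 to 0.16, and those of other-numbered samples from -0.16 to 0.16. With 2 or 3 pairs per group these cannot show whether same-numbered pools shared mice or litters. Adult small intestine 2 and adult colon 2 did share a slide. With the replicate block, list counts were 0 in KO over wild type in adult colon, 1 (wild type) and 0 (KO) between adult tissues, and 4 and 5 between stages in small intestine and colon.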
